A study of Mus musculus with 95 samples.

Results

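The comparison described here set the sciatic nerve (SCN) of diabetic mice against that of non-diabetic mice when both had been fed pioglitazone (PIO). It rests on 12 of the 95 RNA sequencing libraries of the series, chosen by their labels alone: 6 libraries of SCN db/+ PIO and 6 of SCN db/db PIO. Both groups were male mice of the strain BKS.Cg-m +/+ Leprdb/J, aged 16 weeks, and both received 15 mg/kg pioglitazone for 11 weeks. The db/db mice carry 2 defective copies of the leptin receptor gene and become obese and diabetic, whereas db/+ mice carry 1 and served as controls. Since the drug was in both groups, the contrast measures what separated diabetic from control nerve during treatment, not what the drug did. For comparison, 12 untreated SCN libraries (6 db/+ and 6 db/db) and 12 libraries of dorsal root ganglia (DRG) from pioglitazone-fed mice (6 db/+ PIO and 6 db/db PIO) were used. The receptor defect is present in every cell from birth, so obesity, high blood glucose and the receptor defect came together in the db/db groups and cannot be told apart.

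Pioglitazone is a thiazolidinedione that activates PPARG, a nuclear receptor which drives fat cell genes, raises insulin sensitivity and is also active in macrophages. The sciatic nerve holds axons whose cell bodies lie in the ganglia and spinal cord, Schwann cells that wrap or myelinate them, fibroblasts and perineurial cells, blood vessels, mast cells and macrophages, with fat and muscle around the nerve. Macrophages take up lipid and debris, present antigen through MHC class II and call in further cells through chemokines. Schwann cells make the myelin proteins and switch to a repair state after injury.

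The files gave 1 expression value per gene and library in FPKM, fragments scaled to transcript length and library size, and no counts, so the read depth behind a value is unknown and no counting interval could be given. Many values were exactly 0 where a real 0 is implausible: among the 12 libraries, Actb was listed at 0 in 9 and Pmp22, Prx and Mag in all 12. An exact 0 was therefore treated as missing, and at least 3 values above 0 were needed in both groups. FPKM ranges run from the lowest to the highest value above 0, mostly with the median. The number of libraries with a value follows where it was fewer than 6. Genes given only by name or difference may rest on as few as 3 values in a group. In db/db PIO these included C1qa, Sdhd, Ndufa8, Cycs, Il7r and Gsta4, and in db/+ PIO Etfdh, Fh1, Gstm2 and Thy1. Missing values were not even. For 4418 genes that usually reached an FPKM of 10, 53.1 to 59.2% (median 57.2%) of entries were 0 in the db/+ PIO libraries and 57.8 to 75.1% (median 63.2%) in the db/db PIO libraries (two-sided exact permutation test, p = 0.0238, 0.0714 adjusted over 3 measures; the smallest p for 6 against 6 is 0.00216). Of the genes found higher in db/db PIO, 47.4% had fewer values in that group than in db/+ PIO, as had 24.9% of those found lower and 35.7% of those that did not differ; the part of missing values in the results was not tested. Differences are given as log2(FPKM + 1), a scale on which changes of low genes appear smaller than they are, and adjusted p-values come from limma with Benjamini-Hochberg adjustment over all genes tested. Where ranges are said not to overlap, this only describes the values of genes that had passed the test. The share of all tested genes without overlap was not computed, so a count of such genes is no result about a list. Nothing in the labels ties a library to a litter or a day, so each p-value measures the spread between these libraries.

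As a check of tissue, the myelin gene Mbp was at 7889 to 11380 FPKM. The other defining Schwann cell markers could not serve, since Pmp22 and Prx had no value above 0 and Sox10 had 1. Other cells were present too. Fat was uneven: the summed FPKM of 19 white adipocyte genes, to which a missing value adds nothing, ran from 136 to 12700 (median 6690) in db/+ PIO and from 7310 to 17100 (median 11500) in db/db PIO. The fat cell hormone Adipoq was at 73.61 to 323.4 FPKM in the 3 db/+ PIO libraries with a value and was listed at 0 in the 6 db/db PIO libraries. Ucp1, which defines brown fat cells, reached 4.15 FPKM in db/+ PIO and had 1 value, 81.97, in db/db PIO. Muscle was uneven too: the summed FPKM of 18 skeletal muscle genes ran from 23.1 to 53.4 (median 35.3) in db/+ PIO and from 32.7 to 555 (median 116) in db/db PIO, with replicates 1, 3 and 5 of db/db PIO the highest. The db/+ PIO replicate 4 stood apart for interferon-stimulated genes, with Isg15 at 76.42 FPKM and Bst2 at 363.6. Results that rest on these libraries are given with and without them. The defining markers of skin (Krt5, Krt14) and of T cells (Cd3e, Cd3g) never exceeded 0.7 FPKM in the 12 libraries.

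Of 4402 genes that could be tested, 1487 (33.8%) differed between db/db PIO and db/+ PIO nerve at an adjusted p under 0.05, 908 higher (20.6%) and 579 lower (13.2%) in the diabetic mice, around a median log2 difference of 0.045 over all genes tested. Where every library of both groups had a value, 392 of 1032 genes (38%) differed, 225 higher (21.8%) and 167 lower (16.2%). Of the 134 genes chosen by the naming rule that differed, 86 did so in each of the 12 fits that left out 1 library. A further 22 lost the call in none but had too few values to be tested in every fit, and the other 26 are listed with the processing alternatives. With an exact 0 taken as a value of 0, 147 of 7627 genes differed. The genes with the largest differences were of several kinds. Macrophage genes (Ear11, Arg1, Atp6v0d2, Ear2, Ms4a6d), the alarmin S100a8 and matrix genes (Mfap4, Gdf10) were higher, whereas Shh, the cartilage collagen Col2a1, the synaptotagmin Syt4 and the transcription factors Mycn and Pou3f2 were lower.

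**Figure D1:**
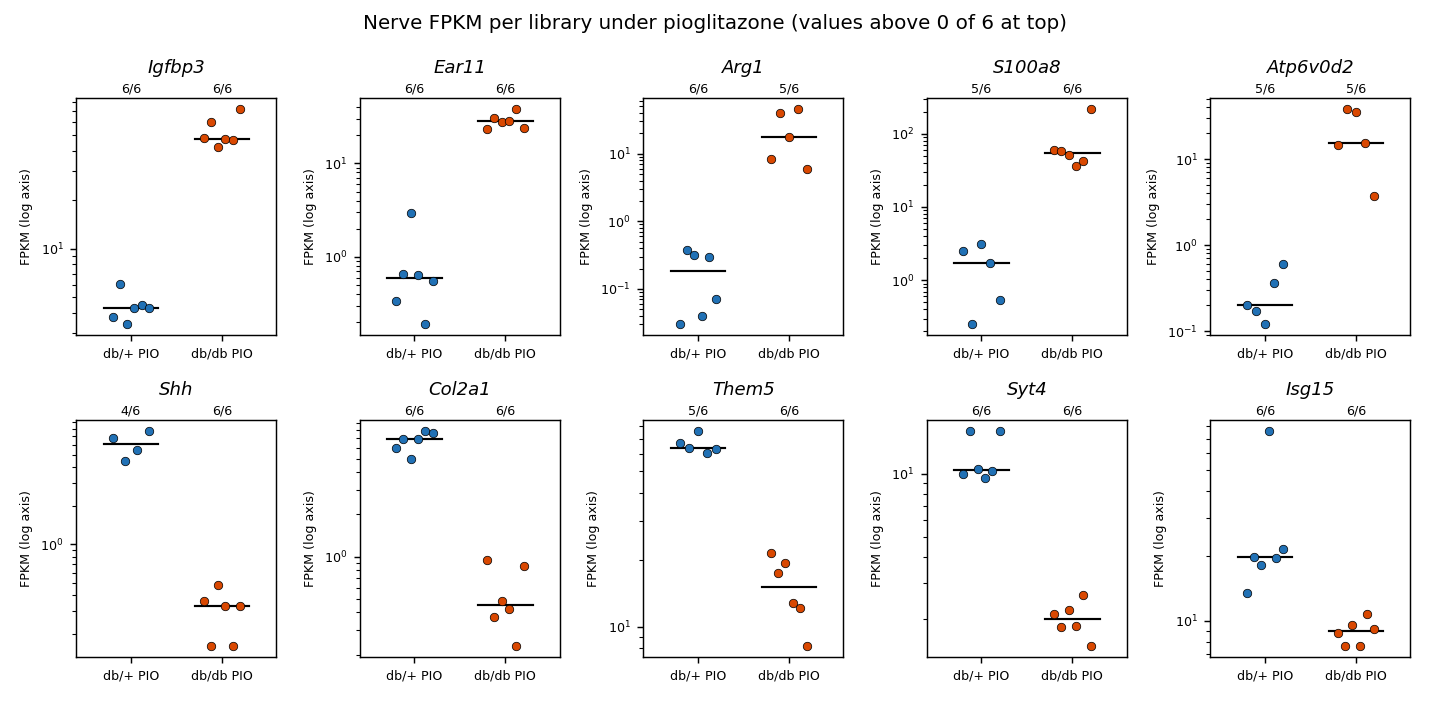
FPKM of the genes with the largest differences in each of the 12 sciatic nerve libraries, on a log axis; each point is 1 library of db/+ PIO or db/db PIO, the bar is the median, and exact zeros are not drawn. For Igfbp3 the db/db PIO points lie between 42.09 and 72.62 and the db/+ PIO points between 3.41 and 6.02; for Shh they lie between 0.16 and 0.48 and between 4.51 and 7.76.

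Igfbp3, an insulin-like growth factor binding protein that carries IGF in blood and tissue (mm9, chr11:7106089-7113926, minus strand), was among the most sharply separated of the genes that were higher. Its FPKM lay between 3.41 and 6.02 (median 4.29) in db/+ PIO and between 42.09 and 72.62 (median 47.5) in db/db PIO. The groups were far apart, with a log2 difference of 3.31 (SE 0.181, adjusted p = 1.66e-11). S100a8, a calcium-binding alarmin of neutrophils and activated macrophages (mm9, chr3:90472993-90473956), was at 0.25 to 3.16 FPKM (median 1.73, n = 5) in control nerve. In diabetic nerve it was at 36.29 to 217.9 (median 54.9), replicate 6 being the highest by far, and the log2 difference was 4.74 (SE 0.574, adjusted p = 3.47e-06). The less known Gm11428, 1110059M19Rik and LOC100502673 were higher by 3.05 (SE 0.386), 2.98 (SE 0.344) and 2.80 (SE 0.427).

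The lower genes were led by Shh, a Hedgehog ligand (mm9, chr5:28783355-28793641, minus strand), at 4.51 to 7.76 FPKM (median 6.1, n = 4) in db/+ PIO and 0.16 to 0.48 (median 0.33) in db/db PIO. The difference was -2.43 (SE 0.187, adjusted p = 6.04e-08). The library kit did not mark strand and the exons of Shh overlap Gm17493 and 9530036O11Rik on the other strand, so reads from these genes cannot be told apart. Col2a1, the chief collagen of cartilage (mm9, chr15:97806033-97835155, minus strand), was at 4.93 to 7.92 FPKM (median 6.89) against 0.23 to 0.94 (median 0.45). Every diabetic library was below every control library, by 2.32 on the log2 scale (SE 0.127, adjusted p = 1.66e-11). Them5, a mitochondrial acyl-CoA thioesterase, was at 60.64 to 76.16 FPKM (median 63.3, n = 5) and 8.17 to 21.34 (median 15.1), again with no overlap. Syt4, a synaptotagmin of vesicle trafficking whose exons overlap Gm16871, was at 9.58 to 16.14 (median 10.4) and 1.49 to 2.62 FPKM (median 2).

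The remaining large falls were smaller in size. Has2, which makes hyaluronan and overlaps the antisense Has2as, was at 7.18 to 7.84 FPKM (median 7.76, n = 5) in db/+ PIO and 1.44 to 3.11 (median 2.43) in db/db PIO. Mycn, a growth-promoting transcription factor, was at 8.15 to 12.22 (median 10.5) and 2.48 to 5.11 (median 3.34, n = 5). Pou3f2, a POU-domain factor of Schwann cells and neurons, was at 7.46 to 9.87 (median 9.06, n = 4) and 2.4 to 4.49 (median 2.74, n = 5). None of these 3 overlapped between the groups. The lens crystallin Crygs, the Fc receptor-like Fcrls, the apoptosis inhibitor Faim2, the dehydrogenase Dhrs2, Gkn3 and the unnamed loci LOC100503439 and LOC100504495 completed the named falls, with log2 differences between -1.71 and -1.19.

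To read the change by kind of gene, 42 lists of 829 genes were used, chosen with earlier results of these data known. Of 23 lists with 5 or more genes tested, 11 had members higher and none lower in db/db PIO nerve. Over all genes tested 20.6% were higher and 13.2% lower, and a list's count near these shares is no result about that list. Several lists could be tested in a small part only, because most of their members were listed at 0.

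**Figure D2:**
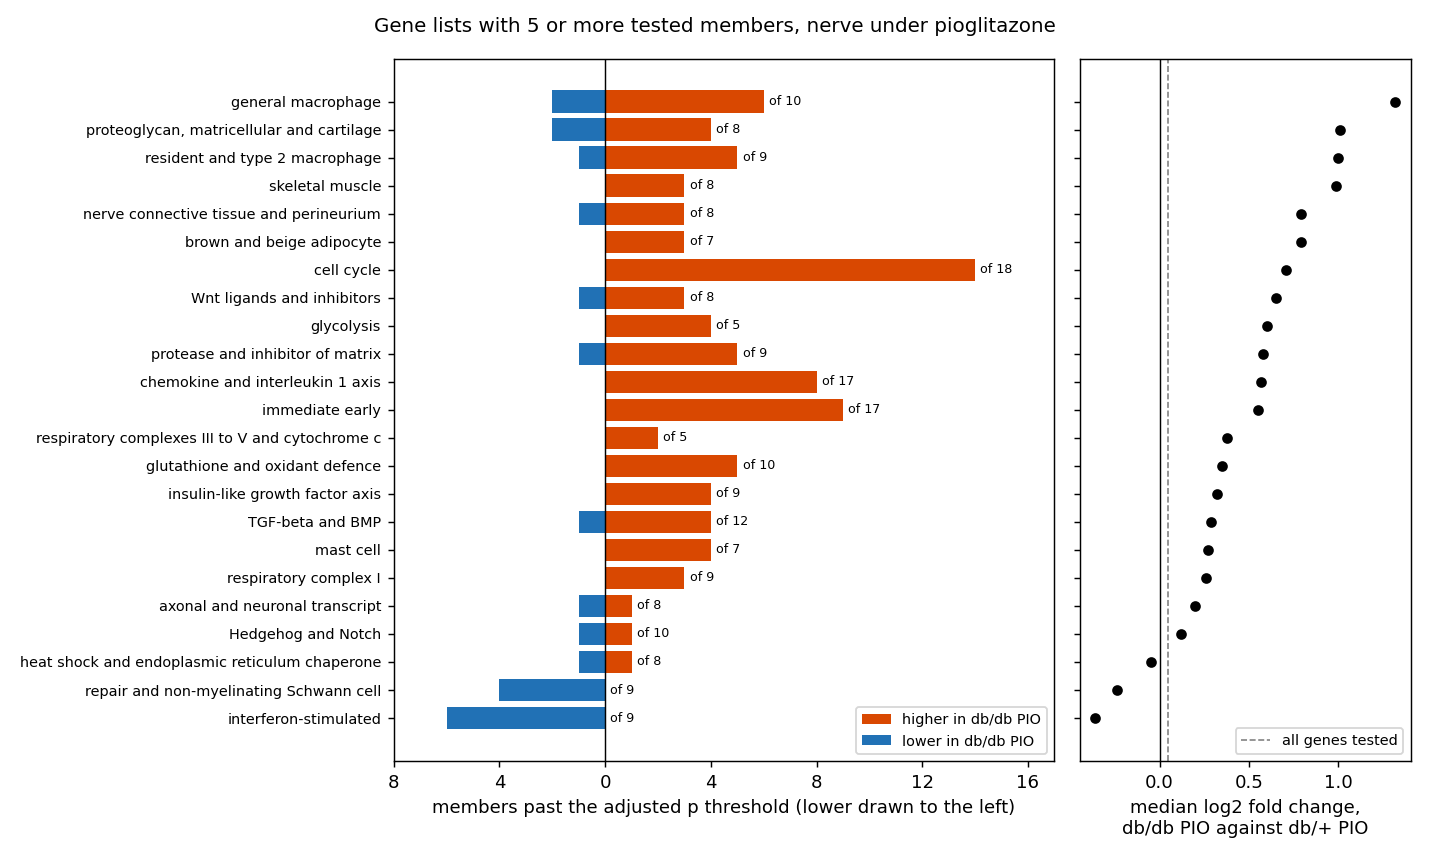
Left, number of list members higher (right of 0) or lower (left of 0) in db/db PIO than in db/+ PIO sciatic nerve at an adjusted p under 0.05, for the 23 lists with 5 or more genes tested, with the number tested beside each bar; right, the median log2 difference of each list, the dashed line marking all genes tested. The cell cycle list has 14 of 18 higher, and the interferon-stimulated and repair Schwann cell lists have 6 of 9 and 4 of 9 lower.

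Macrophage genes were among the largest rises. Of 9 tested genes of resident and type 2 macrophages, 5 were higher and 1 was lower, with a median log2 difference of 1.0. Arg1, the arginase of alternatively activated macrophages (mm9, chr10:24635014-24647276, minus strand), was at 0.03 to 0.38 FPKM (median 0.185) in db/+ PIO and 5.97 to 45.92 (median 17.4, n = 5) in db/db PIO. All 5 diabetic values exceeded all 6 control values (log2 difference 3.98, SE 0.408, adjusted p = 5.43e-07). Ear11, a ribonuclease of eosinophils and alternatively activated macrophages (mm9, chr14:51874941-51875787, minus strand), was at 0.19 to 2.92 (median 0.595) and 23.59 to 38.28 (median 28.1; log2 difference 4.09, SE 0.292, adjusted p = 5.46e-09). Ear2, of the same multigene family, was at 0.24 to 2.8 (median 1.33) and 6.11 to 20.63 (median 13, n = 5). The Ear genes are near copies of each other, so the split of reads between them is uncertain. The chemokine Ccl8 was at 1.27 to 17.35 (median 9.7) and, in the 3 diabetic libraries with a value, 80.3 to 141.3. The mannose receptor Mrc1 was also higher, by 1.00 (SE 0.194). Cd209a, a lectin of dendritic cells, was lower, at 2.67 to 4.32 (median 2.94, n = 5) against 1.85 to 2.4 (median 2.1).

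Of 10 tested general macrophage genes, 6 were higher and 2 lower (median log2 difference 1.32). The scavenger receptor Msr1 was at 0.74 to 1.49 FPKM (median 0.875) in db/+ PIO and 4.44 to 9.93 (median 7.56, n = 5) in db/db PIO. Cd14, the co-receptor for lipopolysaccharide, was at 3.34 to 5.28 (median 4.56) and 10.12 to 14.94 (median 12.1), and Laptm5, a lysosomal membrane protein of blood cells, at 4.14 to 6.97 (median 4.8) and 11.05 to 43.9 (median 21, n = 5). These 3 did not overlap between groups. The activating receptor Fcgr3 was higher by 1.78 (SE 0.241), lysozyme Lyz2 by 2.13 (SE 0.256) and the complement component C1qa by 1.34 (SE 0.198). The inhibitory receptor Fcgr2b, at 35.09 to 44.15 FPKM (n = 3) against 25.79 to 32.82 (n = 4), and the fractalkine receptor Cx3cr1, at 1.63 to 2.73 (median 2.23) against 0.42 to 2.2 (median 1.14), were lower. Of the defining markers, Cd68 was listed at 0 in all 12 libraries and Csf1r had 1 value in db/db PIO, 26.79 FPKM, above the 9.56 to 13.56 (n = 5) of db/+ PIO. In whole nerve, more macrophages and more RNA per macrophage cannot be told apart, and the same holds for every cell type named below.

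All 3 tested genes of lipid-associated macrophages were higher, though 18 of the list's 21 members could not be tested. The summed FPKM of all 21, to which a missing value adds nothing, had a lower median in db/db PIO. It ran from 3150 to 4340 (median 3530) in db/+ PIO and from 15.5 to 4320 (median 460) in db/db PIO. Atp6v0d2, a proton pump subunit of macrophages and osteoclasts, was at 0.12 to 0.61 FPKM (median 0.2, n = 5) in db/+ PIO and 3.77 to 38.31 (median 15.5, n = 5) in db/db PIO. Itgax, which encodes CD11c, was at 0.03 to 0.2 (n = 5) and 1.06 to 4.81 (n = 3), and the lysosomal acid lipase Lipa at 36.42 to 40.84 (n = 4) and 53.71 to 100.8 (n = 3). Of 4 tested lysosome genes, 3 were higher, Lipa among them. The protease inhibitor Cstb was at 56.77 to 80.54 (median 73.2) and 148.9 to 240.8 (median 190, n = 5), a difference of 1.40 (SE 0.139, adjusted p = 3.77e-07). Rgs1, a regulator of G-protein signals in immune cells, was at 0.07 to 0.41 (median 0.215) and 2.62 to 20.75 (median 14.6), and Ms4a6d, a membrane protein of macrophages, at 0.35 to 1.77 (median 1.5) and 8.52 to 15.53 (median 13.9, n = 5).

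Some chemokine ligands and receptors were higher too. Of 17 tested genes of the chemokine and interleukin 1 axis, 8 were higher and none was lower. The ligands were Ccl6, at 4.1 to 10.54 FPKM (median 6.93, n = 5) against 35.81 to 56.97 (median 53.6, n = 3), Ccl3, at 0.07 to 0.25 (n = 5) against 0.42 to 2.09 (median 1.59), and Ccl2, Ccl9, Cxcl1 and Cxcl14, higher by 0.90 (SE 0.288), 1.83 (SE 0.323), 0.74 (SE 0.193) and 1.26 (SE 0.437). The receptor Ccr1, at 0.42 to 0.69 (median 0.48) against 1.39 to 4.07 (median 2.62, n = 5), was higher, with no overlap. Ccr2, the receptor of inflammatory monocytes, differed by -0.04 (SE 0.267) and did not pass the test. Of 4 tested complement genes, 3 were higher: C1qa and the anaphylatoxin receptors C3ar1, at 1.1 to 1.53 (n = 4) and 4.37 to 14.36 (n = 5), and C5ar1, at 2.13 to 3 (median 2.68) and 7.7 to 16.75 (median 12.4, n = 5). The complement sum, to which a missing value adds nothing, had a lower median in db/db PIO. Over 19 genes it ran from 104 to 545 FPKM (median 163) in db/+ PIO and 31.4 to 159 (median 72.4) in db/db PIO. In the neutrophil and S100 alarmin list, S100a8 and Lcn2, a siderophore-binding protein at 2.6 to 5.31 against 6.79 to 8.44 FPKM (n = 4), were higher; S100a9, the partner of S100a8, differed by 1.74 (SE 1.08) and Mmp9 by -0.48 (SE 0.218), neither past the threshold.

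Antigen presentation ran the other way. Of 4 tested MHC class II genes, 3 were lower in db/db PIO nerve. H2-Eb1, a beta chain, was at 27.59 to 54.31 FPKM (median 30.2, n = 5) in db/+ PIO and 6.09 to 23.27 (median 19.8, n = 5) in db/db PIO, without overlap (log2 difference -1.15, SE 0.342, adjusted p = 0.014). H2-Ab1 and H2-Aa, a beta and an alpha chain whose exons overlap, differed by -0.85 (SE 0.292) and -0.86 (SE 0.323), with ranges that overlapped. Cd74, the invariant chain, differed by -0.42 (SE 0.374) and did not pass. Without db/+ PIO replicate 4, which was the highest for H2-Eb1 and H2-Ab1, 1 of the 4 passed the test.

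Of 9 tested interferon-stimulated genes, 6 were lower and none was higher. Isg15, a ubiquitin-like protein (mm9, chr4:155573533-155574927, minus strand), was at 13.51 to 76.42 FPKM (median 19.7) in db/+ PIO and 7.64 to 10.72 (median 8.99) in db/db PIO, with no overlap (log2 difference -1.30, SE 0.263, adjusted p = 6.75e-04). Ifit1, which binds viral RNA, was at 2.49 to 9.37 (median 2.85) and 1.06 to 1.63 (median 1.16, n = 5), and the surface protein Bst2 at 39.25 to 363.6 (n = 4) and 32.34 to 39.38 (n = 5). The top value of each came from db/+ PIO replicate 4. Leaving that library out, the differences were -0.97 (SE 0.148) for Isg15, -0.73 (SE 0.115) for Ifit1 and -0.46 (SE 0.112) for Bst2, and 6 of 8 tested members were lower. Oasl2, Usp18 and the RNA sensor Ddx58 were the others that passed, and Oas1a, Mx2 and Rsad2 differed by 0.00 to -0.20 without passing.

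The promoters of these 3 genes are shown because they carry the letters by which interferon-responsive elements are usually recognised. In the 250 bases before the start of 27025 mouse genes (RefSeq, GRCm38.p6), the pattern GAAANNGAAA was present on either strand in 821, or 3.04%. It was present in 3 of the 5 matched promoters of the 6 members that were lower, and in 2 of 2 matched promoters of tested members that did not pass. The 200 bases before the start are given 5′ to 3′ on the gene's strand, with every match in capitals, on chr4:156200819-156201018 (minus) for Isg15, chr19:34640689-34640888 (plus) for Ifit1 and chr8:71537473-71537672 (minus) for Bst2. Matches overlap each other in Isg15 and Bst2, and those of Ifit1 read on the other strand.
Isg15: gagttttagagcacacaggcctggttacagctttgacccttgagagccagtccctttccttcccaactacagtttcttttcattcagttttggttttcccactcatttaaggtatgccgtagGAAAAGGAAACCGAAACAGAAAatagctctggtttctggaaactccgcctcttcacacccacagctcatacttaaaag
Ifit1: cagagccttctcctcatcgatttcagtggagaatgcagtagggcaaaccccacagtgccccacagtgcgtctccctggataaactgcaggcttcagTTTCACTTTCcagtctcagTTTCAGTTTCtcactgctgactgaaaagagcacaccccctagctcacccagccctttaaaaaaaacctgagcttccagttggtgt
Bst2: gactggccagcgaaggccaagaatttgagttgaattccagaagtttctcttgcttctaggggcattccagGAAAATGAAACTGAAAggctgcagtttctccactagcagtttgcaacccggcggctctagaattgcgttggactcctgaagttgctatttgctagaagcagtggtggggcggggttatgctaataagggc

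Genes of dividing cells were higher in diabetic nerve. Of 18 tested cell cycle genes, 14 were higher and none was lower (median log2 difference 0.71). Mki67, the usual marker of proliferation, was at 0.15 to 0.37 FPKM (median 0.275) in db/+ PIO and 0.84 to 2.25 (median 1.6, n = 5) in db/db PIO, a difference of 1.00 (SE 0.135, adjusted p = 1.12e-05). Rrm2, a subunit of ribonucleotide reductase, was at 0.3 to 0.89 (median 0.565) and 1.65 to 4.57 (median 3.07). Ccne1, the cyclin of entry into S phase, was at 0.37 to 0.97 (median 0.69) and 1.06 to 2.4 (median 1.96), and the mitotic cyclin Ccnb1 at 0.08 to 0.4 (median 0.135) and 0.47 to 2.21 (median 1.54). In each of these 4 the groups did not overlap. The mitotic kinases Cdk1 and Plk1, the topoisomerase Top2a, the survivin gene Birc5, the cyclins Ccna2 and Ccnb2, the checkpoint kinase Bub1b and the replicative helicase subunits Mcm3, Mcm5 and Mcm6 were also higher, by 0.36 to 1.34. Aurka, Mcm2, Pcna and Tyms did not pass, with differences of 0.04 to 0.37.

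The CCAAT box, which the NF-Y factor binds, was found on either strand in the 250 bases before the start of 34.5% of 27025 genes. It was present in 11 of the 13 matched promoters of the 14 higher cell cycle genes and in 3 of 4 matched promoters of tested members that did not pass. Ccne1 and Birc5 were the 2 matched genes without it. The 200 bases before the start are shown for the other 3 genes without overlap above, with the box in capitals (CCAAT, or ATTGG where it reads on the other strand), on chr7:135716380-135716579 (minus) for Mki67, chr13:100786487-100786686 (minus) for Ccnb1 and chr12:24708054-24708253 (plus) for Rrm2. Mki67 holds 3 boxes, Ccnb1 2 and Rrm2 1. A match is a description of the letters only.
Mki67: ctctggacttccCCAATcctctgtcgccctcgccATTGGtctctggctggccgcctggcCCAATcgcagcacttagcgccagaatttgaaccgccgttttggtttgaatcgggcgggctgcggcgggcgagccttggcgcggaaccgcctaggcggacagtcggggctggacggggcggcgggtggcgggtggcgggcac
Ccnb1: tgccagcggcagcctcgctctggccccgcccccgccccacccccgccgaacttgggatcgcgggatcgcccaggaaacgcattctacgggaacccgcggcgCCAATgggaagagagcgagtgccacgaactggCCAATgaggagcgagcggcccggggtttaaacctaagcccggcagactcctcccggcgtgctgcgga
Rrm2: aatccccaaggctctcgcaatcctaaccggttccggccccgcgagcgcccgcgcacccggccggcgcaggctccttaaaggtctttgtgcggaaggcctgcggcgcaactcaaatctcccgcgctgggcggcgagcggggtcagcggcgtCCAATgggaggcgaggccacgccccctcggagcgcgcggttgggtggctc

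Immediate early genes, which respond within minutes to growth factors and stress, were also higher: 9 of 17 tested, with none lower. Zfp36, which destabilises cytokine mRNA, was at 12.18 to 17.69 FPKM (median 15.6) in db/+ PIO and 28.77 to 41.19 (median 35.7, n = 5) in db/db PIO. The phosphatase Dusp1 was at 10.2 to 23.76 (median 14.6) and 23.1 to 54.45 (median 35.2, n = 5), and the antiproliferative factor Btg2 at 4.74 to 9.75 (median 7.43) and 13.3 to 14.49 (median 13.8). Fosl2 was higher by 0.78 (SE 0.111), with 3 values in db/db PIO, and Fos, Junb, Klf4, Ier2 and Cyr61 by 0.51 to 1.00. Jund, Fosb, Atf3 and Egr3 did not pass, with differences of 0.07 to -0.59. How long tissue stood before freezing was not given in the sources used here, and its part in these values was not tested.

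Mbp and Pou3f1, both on the Schwann cell myelin list, were lower in db/db PIO nerve. Mbp, the myelin basic protein, was at 9692 to 11380 FPKM (median 10700) in db/+ PIO and 7889 to 10260 (median 8760) in db/db PIO, with overlap, and its small difference of -0.26 (SE 0.0914, adjusted p = 0.03) missed the threshold in 12 of 25 alternatives, among them the fits without db/+ PIO replicate 1, 4 or 5 or db/db PIO replicate 1, 2 or 3, at -0.26 to -0.23, and quantile normalization, at -0.56. Pou3f1, the factor that starts myelination, was at 9.92 to 17.22 (median 12) and 7.2 to 10.12 (median 8.26).

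Of 9 tested genes of repair and non-myelinating Schwann cells, 4 were lower and none was higher. Besides Shh, they were Ngfr, the low-affinity neurotrophin receptor, at 15.04 to 25.66 FPKM (median 17.4, n = 5) against 7.49 to 11.46 (median 9.36), the intermediate filament Gfap, at 2.44 to 4.19 (median 3.47, n = 5) against 1.5 to 1.92 (median 1.65), and the cytokine Lif, at 3.02 to 3.91 (n = 4) against 1.91 to 2.6 (n = 4). None of the 4 overlapped between groups. Jun, the driver of the repair state, and Sox2 did not pass, with differences of 0.07 (SE 0.172) and -0.24 (SE 0.136). Of 10 tested Hedgehog and Notch genes, Shh was lower and the Hedgehog effector Gli2 higher, at 0.55 to 1.49 (n = 4) against 2.51 to 3.19 FPKM (n = 4), whereas the Notch targets Hey1, Hey2 and Heyl did not pass.

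Of 8 axonal and neuronal transcripts tested, 1 was higher and 1 lower. Npy, the neuropeptide Y that sensory neurons make after injury and sympathetic neurons make at rest, was at 0.15 to 0.82 FPKM (n = 4) in db/+ PIO and 2.51 to 6.21 (n = 4) in db/db PIO (log2 difference 1.78, SE 0.224, adjusted p = 2.86e-05). Slc6a2, the noradrenaline transporter of sympathetic axons, was at 0.53 to 1.86 (median 1.06) and 0.12 to 0.43 (median 0.235), again without overlap (-0.75, SE 0.154, adjusted p = 6.75e-04). The neurofilament Nefl differed by 0.05 (SE 0.286) and Nefm by 0.11 (SE 0.462).

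Of 7 tested mast cell genes, 4 were higher and none lower: Kit, the stem cell factor receptor (mm9, chr5:75970941-76052747), at 1.18 to 1.68 FPKM (median 1.19) against 3.27 to 4.68 (median 4.05; log2 difference 1.14, SE 0.0966, adjusted p = 4.99e-08), Hdc, which makes histamine, at 0.7 to 1.31 (median 1.04) against 1.04 to 2.73 (median 2.04), the IgE receptor chain Fcer1a and the factor Gata2. Kit alone of these did not overlap. The granule proteases that define the cells did not pass, Cpa3 at 5.92 to 10.61 (median 8.76, n = 5) against 5.29 to 13.83 (median 5.87) and Mcpt4 at 24.97 to 52.08 (median 35.8, n = 5) against 16.86 to 43.41 (median 20.9). Under quantile normalization 3 members were higher and 1 was lower. The summed FPKM of the 13 mast cell genes in the files ran from 12.4 to 79.7 (median 59.2) in db/+ PIO and from 56.7 to 102 (median 71.3) in db/db PIO.

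Extracellular matrix genes moved in both directions. Of 8 tested proteoglycan, matricellular and cartilage genes, 4 were higher and 2 lower. Mfap4, a microfibril protein whose exons overlap Mapk7, was at 0.18 to 1.82 FPKM (median 0.58) in db/+ PIO and 6.09 to 16.91 (median 9.41) in db/db PIO. Comp, a cartilage matrix protein, was at 1.08 to 2.92 (n = 4) and 3.83 to 16.56 (median 10.3), and Cilp, of the same tissue, at 0.16 to 1.37 (median 0.335) and 4.98 to 12.43 (n = 3). Thbs2, an inhibitor of vessel growth, was higher by 0.88 (SE 0.227). The large proteoglycan Vcan was lower, at 7.12 to 8.75 (median 8.42) and 3.52 to 4.71 (median 4.17), as was Sparc, at 2583 to 2937 (median 2830) and 2127 to 2352 (n = 4). Of 3 tested collagens only Col2a1 passed, and the interstitial collagens Col1a1 and Col3a1 had too few values for a test. Of 8 nerve connective tissue and perineurium genes, 3 were higher (Clec3b and the Wnt inhibitors Sfrp2 and Sfrp4) and 1 lower (Sox9); the tight junction gene Cldn1 ranged from 5.05 to 44.91 and from 13.49 to 87.18 FPKM and did not pass.

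Of 9 tested matrix proteases and inhibitors, 5 were higher and 1 lower. Plaur, the receptor of urokinase, was at 0.79 to 2.75 FPKM (n = 5) in db/+ PIO and 5.73 to 9.73 (n = 4) in db/db PIO, and the stromelysin Mmp3 at 0.08 to 0.45 (median 0.235) and 3.44 to 7.78 (median 4.26, n = 5). Neither overlapped. Mmp14 and Adamts1 were higher by 0.56 (SE 0.183) and 0.58 (SE 0.193), and the aggrecanase Adamts4 lower by 0.54 (SE 0.112). Mmp12, the macrophage elastase, could not be tested: it was at 0.01 to 0.25 FPKM in the 6 db/+ PIO libraries and at 4.09 and 29.52 in the 2 db/db PIO libraries with a value. Col6a1, Spon2, Prdx5, Srcin1 and Grem1, which the study also discussed, could not be tested for want of values or level.

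Growth factor pathways had a few members each past the threshold. In the insulin-like growth factor axis 4 of 9 tested genes were higher and none lower, beside 20.6% and 13.2% of all genes, namely Igfbp3, the ligand Igf2 (overlapping the antisense Igf2as), the receptor Igf1r and the adaptor Irs2. The last 3 differed by 0.30 to 0.54, and Igfbp5, Igfbp7 and Irs1 did not pass. Of the 9, 2 were higher under quantile normalization, 2 after median-of-ratios rescaling, where 1 was lower, and 3 without db/+ PIO replicate 4. Of 8 Wnt ligands and inhibitors, 3 were higher, all secreted inhibitors: Sfrp1, at 1.74 to 3.85 FPKM (n = 5) against 4.15 to 7.68 (median 5.9), Sfrp2 and Sfrp4. The Wnt effector Lef1 was lower, at 2.23 to 3.85 (n = 3) against 1.07 to 2.62 (median 1.6). Of 12 TGF-beta and BMP genes, 4 ligands were higher (Tgfb1, Tgfb2, Bmp2 and Bmp3, by 0.37 to 0.99) and the BMP target Id4 was lower by 0.68 (SE 0.163). Gdf10, a further ligand of this family outside the list, was at 1.03 to 13.41 (median 2.44) and 16.72 to 35.18 (median 21.8).

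Energy metabolism genes were higher where they differed, alongside the muscle genes. Of 5 tested glycolysis genes 4 were higher: the hexokinase Hk2, at 1.09 to 4.35 FPKM (median 1.99) against 5.29 to 11.83 (median 7.22), Gapdh, at 216.1 to 230.5 (n = 5) against 254.1 to 321.8 (n = 5), Pgam1 and the muscle isoform Pgam2. Of the tested subunits, 3 of 9 in complex I (Ndufb6, Ndufc2 and Ndufa8) and 2 of 5 in complexes III to V with cytochrome c (Cycs and Uqcrfs1) were higher, by 0.46 to 1.14, beside 20.6% of all genes tested. In the TCA cycle Fh1 and Sdhd were higher out of 3 tested, and in fatty acid oxidation Etfdh out of 2. Sdhb and Cox4i1 were listed at 0 in all 12 libraries. Acaa2 and Echs1 had 0 and 2 values in db/db PIO.

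Of 8 tested skeletal muscle genes, 3 were higher: Ckm, at 1.29 to 6.17 FPKM (median 2.21) against 2.17 to 143 (median 19.9, n = 5), Tnnc2 (overlapping Ube2c), at 2.38 to 10.34 (median 2.74) against 3.59 to 235 (median 41.6), and Tcap. Without the 3 db/db PIO libraries richest in muscle (replicates 1, 3 and 5), an alternative chosen after seeing the data, none of 6 tested muscle genes passed, with Tnnc2 at 0.79 (SE 0.985) and Tcap at 0.71 (SE 0.755). Over all genes 520 of 1943 then differed. Hk2 kept its call at 1.29 (SE 0.271), whereas Pgam2 at 0.45 (SE 0.387) and the fatty acid binding protein Fabp3 at 1.57 (SE 0.586) did not. Of the energy lists, 2 of 4 glycolysis genes and 1 of 5 complex I genes passed without these libraries and none of 2 in complexes III to V. Among the other lists 4 of 4 testable cell cycle genes, 3 of 8 chemokine genes and 3 of 6 repair Schwann cell genes passed in the direction given above. Of the matrix proteases and inhibitors none of 4 was then higher, as against 5 of 9, and of the nerve connective tissue genes none of 5, as against 3 of 8. No lipid-associated macrophage or lysosome gene could be tested without these libraries. How far muscle accounts for the energy genes was not tested further.

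Genes of fat, the best known target of pioglitazone, had few values to test, while their summed level was uneven. The summed FPKM of 22 PPAR target genes ran from 34.3 to 10100 (median 6470) in db/+ PIO and from 7410 to 17000 (median 11500) in db/db PIO, as the white adipocyte sum given above did, and the part of fat in the other results was not tested. Of 4 tested white adipocyte genes none passed; Fabp4 differed by 0.63 (SE 0.311) and the glucose transporter Slc2a4 by 0.96 (SE 0.409). In the brown and beige list 3 of 7 were higher, Fabp3, Otop1 and Kng2, of which Fabp3 is also a heart and muscle protein; Cidea, at 0.69 to 23.69 FPKM (n = 5) against 4.89 to 29.48 (n = 4), and Cox8b did not pass. Of 4 tested PPAR targets, Fabp3 was higher and Ucp3 lower, at 13.46 to 17.33 (n = 5) against 8.2 to 12.52 (n = 5). Neither of 2 genes of fatty acid synthesis passed, and of 3 cholesterol genes Ebp and Hsd17b7 were lower by 0.21 and 0.37, with 1 of the 3 passing under either rescaling. Pparg itself was listed at 0 in all 12 libraries, while Ppara and Ppard had too few values for a test.

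The remaining lists had small counts. Of 10 tested glutathione and oxidant defence genes, 5 were higher: the peroxidase Gpx1, at 117.8 to 235.3 FPKM (median 188) against 251.6 to 427.8 (median 344) without overlap, the dismutase Sod2, Gsr, Gsta4 and Gstm2. The NRF2 targets Nqo1, Hmox1 and Gclm did not pass. Of 8 chaperones, Hspb8 was higher and Hspa1b, a near copy of Hspa1a and so uncertain, was lower; of 4 clock genes Cry1 and Nfil3 were higher, with 1 of the 4 passing under quantile normalization or without db/+ PIO replicate 4. The T and NK cell list had Il7r higher and Thy1, also a neuronal protein, lower, with 3 tested. No member passed in the B cell and plasma cell list or the erythrocyte list, with 2 tested in each. Of 2 endothelial and mural cell genes, Cspg4 was lower, at 8.64 to 15.92 (n = 5) against 8.08 to 10.4 (n = 5). The skin and hair list had Perp higher and Krt17 lower, at 0.91 to 1.65 (median 1.31) against 0.16 to 0.51 (median 0.24).

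Whether the diabetic difference itself depended on treatment was tested with the untreated nerve, which shares no library with the treated comparison. Without pioglitazone 631 of 4233 genes (14.9%) differed between db/db and db/+ nerve, 323 higher (7.63%) and 308 lower (7.28%). Over 3596 genes tested in both, 1254 differed under pioglitazone, 557 without it and 337 in both, which is 60.5% of the genes called without the drug and 26.9% of those called with it; 331 of the 337 went the same way. The difference between the 2 contrasts passed for 224 genes (6.23%), 143 more positive under the drug (3.98%) and 81 more negative (2.25%). Under quantile normalization the split was 83 and 103. Of the genes called under the drug only, 767 showed no such difference, so for them the calls alone do not set the treatments apart.

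**Figure D3:**
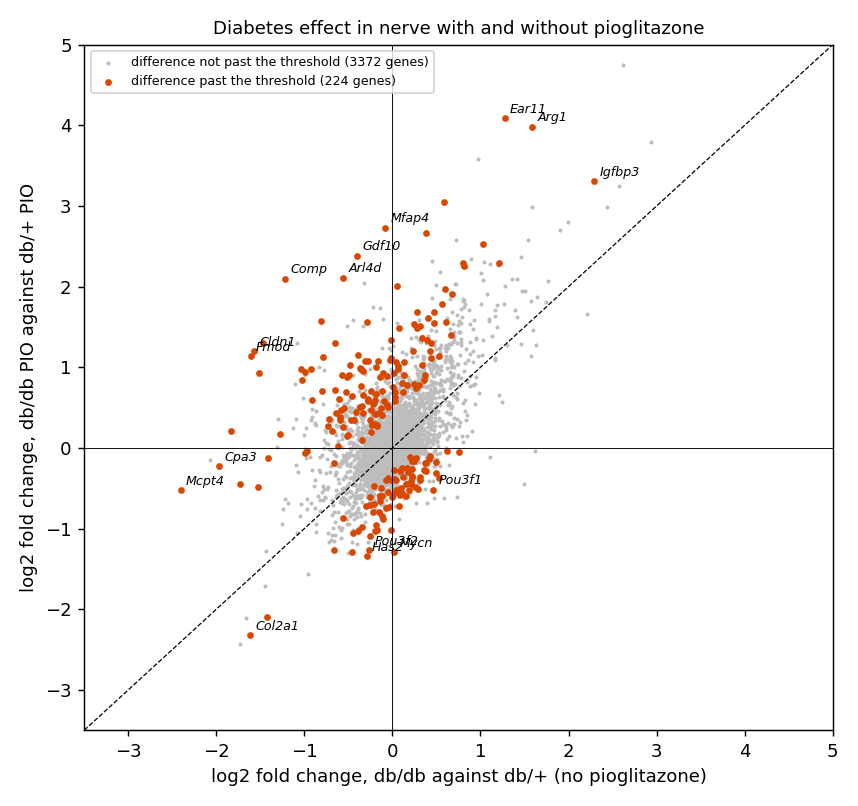
Log2 difference between db/db and db/+ sciatic nerve without pioglitazone (horizontal axis) and with it (vertical axis), on the log2(FPKM + 1) scale; each point is 1 gene tested in both, orange where the difference between the contrasts passed the test, and the dashed line marks equal differences. Igfbp3 lies at 2.29 and 3.31 and Col2a1 at -1.61 and -2.32, whereas Pou3f1 lies at 0.47 and -0.52.

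The gap between diabetic and control nerve was larger under the drug for several macrophage genes. Ear11 was at 0.08 to 0.15 FPKM (n = 3) in db/+ and 0.09 to 3.96 (median 2.12) in db/db without the drug, so its difference of 1.27 (SE 0.357) became 4.09 with it, larger by 2.81 (SE 0.461, adjusted p = 0.0051). Arg1 differed by 1.59 (SE 0.408) without and 3.98 with the drug (larger by 2.39, SE 0.577, adjusted p = 0.022), and Ms4a6d by 1.03 and 2.53. Cd14 and Fcgr3 did not pass without the drug, at 0.44 (SE 0.159) and 0.56 (SE 0.228), and their differences were larger by 0.85 (SE 0.225) and 1.22 (SE 0.332) with it, though both lost this call without db/+ PIO replicate 1 or 3 or db/db PIO replicate 3, and Fcgr3 also without db/+ PIO replicate 2 or 6 or db/db PIO replicate 2, at 0.79 to 1.22. Under quantile normalization Fcgr3 also missed the threshold, at 1.00. Of 9 tested resident and type 2 macrophage genes, 4 had a more positive difference under the drug, beside 3.98% of all genes. These included Cd209a, for which the gap was smaller, at -1.73 without and -0.45 with the drug. The count was 2 of 6 for general macrophage genes and 0 of 3 each for lipid-associated macrophage and complement genes. Of 17 chemokine genes none passed. S100a8 differed by 2.62 without and 4.74 with the drug, a change of 2.12 (SE 0.812) that did not pass. Nor did the changes of Atp6v0d2, Rgs1 and Ear2 pass, at 0.85 (SE 0.606), 0.68 (SE 0.454) and 1.03 (SE 0.466). These genes were higher already without the drug, by 2.93, 2.57 and 1.54. For Cd14 the median of control nerve was 7.94 FPKM untreated and 4.56 treated, and that of diabetic nerve 11.1 and 12.1. Fcgr3 had control medians of 12.9 (n = 5) and 8.53 (n = 4) and diabetic medians of 22.2 and 35.9 (n = 4 each). Between treated and untreated diabetic nerve Cd14 differed by 0.15 (SE 0.159) and Fcgr3 by 0.70 (SE 0.241), neither past the threshold. Ear11, Arg1, Ms4a6d and S100a8 did pass there, at 3.45, 2.06, 1.09 and 2.25. The lower medians of treated controls were not tested.

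The diabetic difference was more positive under the drug for 5 of 7 tested mast cell genes, beside 3.98% of all genes. In untreated nerve Cpa3 was at 10.84 to 24.09 FPKM (median 18.7, n = 5) in db/+ and 2.53 to 5.69 (median 4.04, n = 5) in db/db, and Mcpt4 at 47.55 to 79.69 (n = 3) and 6.83 to 19.03 (n = 4), neither overlapping. Under the drug the medians were 8.76 and 5.87 for Cpa3 and 35.8 and 20.9 for Mcpt4, and the log2 differences of -1.97 (SE 0.244) and -2.41 (SE 0.348) became -0.22 and -0.52. The change was 1.75 (SE 0.338, adjusted p = 0.0073) for Cpa3 and 1.88 (SE 0.444, adjusted p = 0.023) for Mcpt4. Kit, Hdc and Fcer1a were the other 3, at 0.61, 0.86 and 1.30, none of which passed under quantile normalization (0.41, 0.72 and 1.14), and Fcer1a also missed the threshold in 7 of the 12 fits that left out 1 library, at 1.09 to 1.34. Cd209a, the dendritic cell lectin, followed the same course, at 3.89 to 10.35 (n = 5) and 0.56 to 1.92 without the drug, and a change of 1.28 (SE 0.246, adjusted p = 0.0066).

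For several matrix genes the diabetic difference was more positive under the drug, though none was called lower without it and higher with it. Fmod, a collagen-binding proteoglycan, was at 3.16 to 31.17 FPKM (median 22.8) in db/+ and 2.96 to 4.94 (median 3.81) in db/db without the drug, and at 1.95 to 12.22 (median 3.83) and 7.25 to 24.19 (median 11.6, n = 5) with it, a change of 2.75 (SE 0.655, adjusted p = 0.021). Its difference of -1.61 without the drug passed the test and that of 1.14 with it did not. The perineurial junction gene Cldn1 followed the same course, at -1.57 and 1.2. Comp, Mfap4, Cilp and Gdf10 were higher under the drug and did not pass without it, at -1.22, -0.08, 0.38 and -0.41. Comp changed by 3.32 (SE 0.924), Cldn1 by 2.77 (SE 0.709), Mfap4 by 2.81, Cilp by 2.28 (SE 0.609) and Gdf10 by 2.79 (SE 0.814). Comp, Cilp and Gdf10 missed the threshold in 7, 3 and 9 of the 12 fits that left out 1 library. The genes were variable within untreated controls, where Comp ranged from 0.95 to 45.13 FPKM and Gdf10 from 1.07 to 36.64. In the other direction Pou3f1 was higher in untreated db/db nerve, at 8.67 to 13.02 (median 11.8) against 10.36 to 20.7 (median 16.7), and lower under the drug, a change of -0.99 (SE 0.192, adjusted p = 0.0066). Mycn, Has2, Pou3f2 and Crybb1 differed by 0.02 to -0.29 without the drug, none past the threshold, and by -1.02 to -1.34 with it. Of the cell cycle genes none passed this test, 8 of 16 being higher already without the drug.

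**Figure D4:**
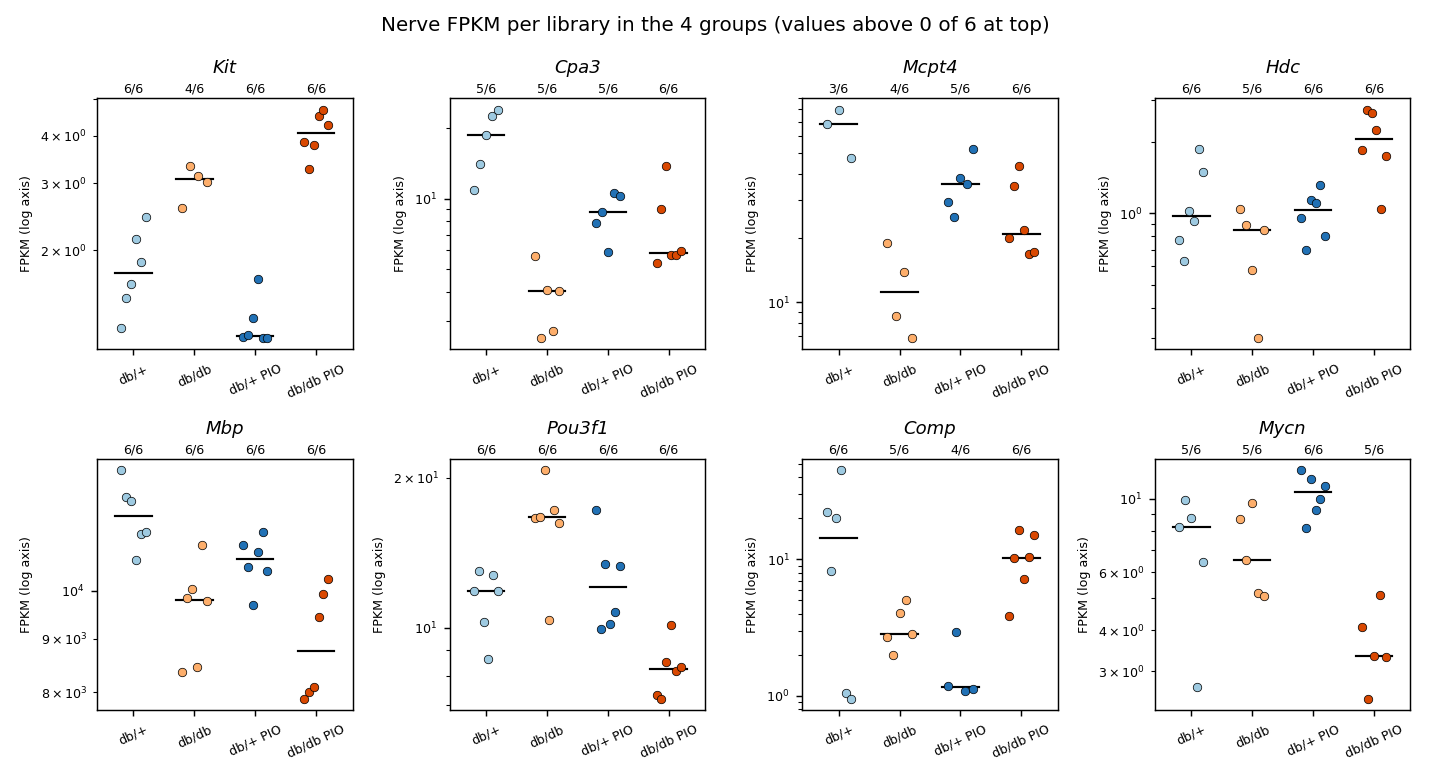
FPKM of 8 genes in the 24 sciatic nerve libraries of db/+, db/db, db/+ PIO and db/db PIO mice, on a log axis; each point is 1 library with a value above 0 and the bar is the median. The median of Cpa3 fell from 18.7 in db/+ to 4.04 in db/db without the drug and lay at 8.76 and 5.87 with it.

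The dorsal root ganglia came from the same treated groups of mice, so a nerve and a ganglion library may share an animal, which the labels do not say. In the ganglia fewer genes differed: 354 of 4095 genes (8.64%) between db/db PIO and db/+ PIO, 168 higher (4.1%) and 186 lower (4.54%). Of 2409 genes tested in both tissues, 823 differed in nerve, 189 in ganglia and 99 in both, which is 12% and 52.4% of each, and 89 of the 99 went the same way. The difference between tissues passed for 432 genes (17.9%), 266 more positive (11%) and 166 more negative (6.89%) in nerve, and 343 of them were called in nerve alone. Igfbp3 was at 5.68 to 8.09 FPKM in DRG db/+ PIO and 5.91 to 9.37 in DRG db/db PIO, and the nerve exceeded the ganglia by 3.27 (SE 0.206, adjusted p = 8.19e-16). Shh was at 12.89 to 15.52 and 11.99 to 15.98 FPKM in the ganglia, a difference between tissues of -2.36 (SE 0.194, adjusted p = 4.71e-11). Tmem28 and Tuba8 (overlapping Gm15856) likewise differed in nerve and did not pass in ganglia, with tissue differences of -1.25 (SE 0.168) and -1.23 (SE 0.165).

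**Figure D5:**
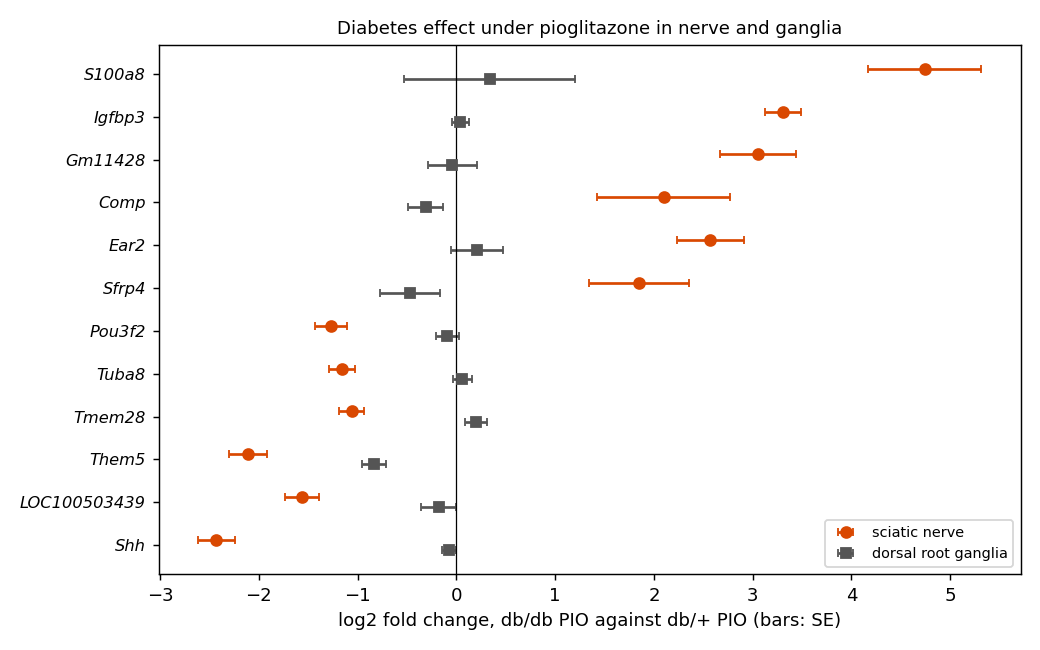
Log2 difference between db/db PIO and db/+ PIO mice in sciatic nerve (circles) and dorsal root ganglia (squares) for 12 named genes. Many named genes passed the test for a difference between tissues, and the 12 are those listed below as the largest per direction. Bars are the SE of the fit. Igfbp3 lies at 3.31 in nerve and 0.04 in ganglia, Shh at -2.43 and -0.07, and Them5 at -2.11 and -0.83.

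For some named genes the difference between tissues did not pass the test. Npy was at 0.29 to 3.77 FPKM in DRG db/+ PIO and 3.45 to 10.7 (n = 4) in DRG db/db PIO, a log2 difference of 1.87 (SE 0.36) beside 1.78 in nerve, and the tissues differed by -0.09 (SE 0.466). The MHC class II genes H2-Eb1, H2-Ab1 and H2-Aa were lower in ganglia by 1.11, 0.83 and 0.90 on the log2 scale, and the interferon gene Bst2 by 1.00; for these 4 the difference between tissues was between -0.16 and 0.05, with SE up to 0.438. Macrophage genes did not follow this pattern. Laptm5 was at 0.73 to 2.04 FPKM over both ganglion groups, and the nerve's differences exceeded those of the ganglia by 2.02 (SE 0.319) for Laptm5, 1.12 (SE 0.191) for Cd14 and 3.66 (SE 0.704) for Ccl8. Them5 was lower in both, by 2.11 in nerve and 0.83 in ganglia, and the fall in nerve was larger by 1.27 (SE 0.228, adjusted p = 1.04e-04).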

How the data were processed

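Sciatic nerve was frozen and its RNA made into TruSeq mRNA v2 libraries, which keep no record of strand. The authors aligned reads to the mouse genome (mm9) with TopHat and Bowtie and estimated FPKM per gene with Cufflinks, whose versions the sources used here do not give. The deposited FPKM, rounded to 2 decimals, cover 25407 genes and carry no counts, so depth is unknown.

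From these values log2(FPKM + 1) was fitted with limma 3.58.1 in R 4.3.3, with 1 mean per group and intensity-dependent moderated variances. The 24 SCN libraries were fitted together, and the 24 SCN and 23 DRG libraries (untreated groups included, for the shared spread) for the comparison of tissues. Genes needed FPKM of at least 1 in 5 SCN libraries (7627 genes), an exact 0 was missing, and each group needed 3 values. Thresholds were 0.05 after Benjamini-Hochberg adjustment. On simulated data (4293 genes), 82% of 1.5-fold and 92% of 2-fold rises and 78% and 90% of such falls were recovered, with 5% false calls. The changed genes, 50 for each change, were drawn from genes of higher level, with independent normal noise and missing values left in place. These rates therefore do not cover low genes, or effects of uneven missing values, fat or muscle.

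The members and the gene lists were chosen with earlier results of these data known. Named genes are the 15 largest changes in each direction (at least 4 values per group, same sign without any 1 library), up to 4 list members per direction, defining markers, up to 6 differences per direction in each of the comparisons with untreated nerve and with ganglia, and genes the study names; Mrc1, Lyz2 and other list members given only as differences were added after their values were seen, and a few genes that meet the rule are not reported here. The single-library measures were compared by exact permutation. Gene positions are from GENCODE vM1 (mm9), promoters from RefSeq (GRCm38.p6). Alternatives covered the pseudocount, filter, rescaling, variance model, replicate block, treatment of zeros, values required, fold and each library left out.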

Additional observations from a re-analysis of the deposited data

Results flagged for a closer look

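Within a group, 1 library stood further from the others than Dixon's test allows at 95% in 18 of 257 gene and group pairs tested; chance alone would give about 1 in 20. In db/+ PIO replicate 4 the highest values belonged to Isg15 (76.42 FPKM), Ifit1 (9.37), H2-Eb1 (54.31), H2-Ab1 (57.16), Kit (1.68) and Tnnc2 (10.34). Replicate 3 of db/+ PIO was highest for Ear11 (2.92 FPKM) and LOC100502673 (0.13), and replicate 2 for Comp (2.92). The low values in db/+ PIO were Ms4a6d in replicate 1 (0.35 FPKM), Has2 in replicate 2 (7.18) and Hsd17b7 in replicate 5 (25.88). In db/db PIO, S100a8 in replicate 6 (217.90 FPKM) was high. Low values there were Sfrp4 in replicate 1 (11.05), Sox9 in replicate 2 (2.07), Igf1r in replicate 3 (7.67), Nfil3 in replicate 4 (3.18) and Ccne1 in replicate 6 (1.06).

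The diabetic difference in nerve changed with pioglitazone, by the interaction test of limma, for 40 of the named genes. On the log2 scale it was more positive with the drug for Ear11 (2.81), Arg1 (2.39), Igfbp3 (1.02), Gm11428 (2.46), Mfap4 (2.81), Ms4a6d (1.5), Gdf10 (2.79), Kng2 (1.35), Fh1 (0.83), Kit (0.61), Hdc (0.86), Fcer1a (1.30), Cd209a (1.28), Cd14 (0.85), Fcgr3 (1.22), Cilp (2.28), Comp (3.32), Mmp3 (1.45), Sfrp1 (1.33), Zfp36 (0.77), Fosl2 (0.48), Gsta4 (0.86), Cstb (0.73), Creg1 (0.48), Perp (1.92), Cldn1 (2.77), Fmod (2.75), Arl4d (2.67), Cpa3 (1.75) and Mcpt4 (1.88). It was more negative for Col2a1 (-0.71), Syt4 (-0.67), Has2 (-1.05), Mycn (-1.32), LOC100504495 (-0.83), Faim2 (-0.61), Pou3f2 (-1.0), Pou3f1 (-0.99), Crybb1 (-1.0) and Foxf1a (-0.90). The call passed in each of the 12 fits without 1 library for 22 of the 40, and Gsta4 lost it in none but could not be tested in every fit. The other 17 lost it: Gdf10, Perp and Zfp36 in 9 fits, Fosl2 in 8, Comp, Fcer1a, Foxf1a and Syt4 in 7. Fcgr3 lost it in 6, Kng2 in 5, Cd14, Cilp, Cstb and LOC100504495 in 3, Creg1 and Sfrp1 in 2 and Fh1 in 1. Quantile normalization ended the call of Fh1, Kit, Hdc, Fcer1a, Fcgr3, Zfp36, Fosl2 and Perp. Median-of-ratios rescaling ended that of Syt4 and Zfp36.

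Many named genes passed the same kind of test for a difference between nerve and dorsal root ganglia. Only the 6 largest per direction with at least 4 values in each group are listed here. The diabetic difference under pioglitazone was more positive in nerve for S100a8 (4.41), Igfbp3 (3.27), Gm11428 (3.09), Comp (2.41), Ear2 (2.36) and Sfrp4 (2.32). It was more negative for Shh (-2.36), LOC100503439 (-1.38), Them5 (-1.27), Tmem28 (-1.25), Tuba8 (-1.23) and Pou3f2 (-1.18).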

How the results depend on the processing

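Unknown depth, uneven missing values and the genes that could not be tested limit every count here. Against 1487 genes under pioglitazone, 224 for the difference from untreated nerve and 432 for the difference from ganglia, the numbers were 147, 3 and 17 with an exact 0 taken as a value, and 798, 146 and 185 where 5 values per group were required. With values in all 6 libraries they were 392 of 1032 genes and 59 of 650. Without the muscle-rich libraries they were 520 and 86. A fold of at least 1.5 left 691 genes, and array weights gave 501 differences from untreated nerve. Leaving out 1 library gave 1199 to 1463 and 120 to 311 genes; the second count was 134, 120 and 135 without db/+ PIO replicates 1, 3 and 6 and 135 without db/db PIO replicate 3. Under quantile normalization 53.2% of calls were higher in place of 61.1%, and 44.6% in place of 63.8% for the difference from untreated nerve.

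With the replicate block the counts were 1426, 222 and 428. The numbers do not pair the libraries: same-numbered libraries of the 2 groups correlated at -0.21 to 0.072 over 546 genes, and 1 of 6 numbers correlated best with its own. Nor did they pair nerve with ganglia, with same-numbered libraries at -0.37 to 0.044 in db/+ PIO and -0.19 to 0.16 in db/db PIO; taking each such pair as one mouse, an alternative chosen after seeing the data, gave 407 differences between tissues in place of 432. The fit without a filter and that with the block each lost 12 of 134 named calls and quantile normalization 8. The fit of values with zeros lost 83 and reversed 23: LOC100504495 (0.87), Sdhd (-1.20), Ndufa8 (-0.89), Cycs (-0.22), Pgam1 (-0.64), Gata2 (-0.12), Fcgr2b (0.60), Lipa (-0.40), Thy1 (0.11), Lcn2 (-0.19), Bst2 (0.10), C1qa (-2.0), Irs2 (-0.23), Igf2 (-0.07), Lef1 (0.44), Tgfb1 (-0.57), Id4 (1.35), Fosl2 (-1.19), Nfil3 (-0.15), Cry1 (-0.55), Hspa1b (0.01), Gsta4 (-2.88) and Creg1 (-1.88). It also reversed the difference from untreated nerve for LOC100504495 (0.21), Zfp36 (-0.83), Fosl2 (-1.50), Gsta4 (-2.69) and Creg1 (-2.18). For the difference from ganglia it reversed LOC100503439 (0.25), LOC100504495 (1.05), Otop1 (-0.15), Fcgr2b (0.91), Ccl6 (-0.43), C1qa (-2.37), Tgfb1 (-0.32), Zfp36 (-0.09), Dusp1 (-0.11), Creg1 (-2.0) and Arl4d (-0.05). A gene with more zeros in 1 group then moves toward 0 in that group by construction.

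Leaving out 1 library ended the call of 26 of 134 named genes, always in the same direction. Comp lost it without db/+ PIO replicate 6 (2.02), Ddx58 without db/db PIO replicate 2 (-0.29) and Tgfb1 without db/db PIO replicate 3 (0.55). The others were Fcer1a (2 fits, 0.75 to 0.77), Hspb8 (3 fits, 0.71 to 0.88), Nfil3 (3 fits, 0.60 to 0.62), Adamts1 (4 fits, 0.49 to 0.52), Ebp (4 fits, -0.20 to -0.19), H2-Ab1 (4 fits, -0.80 to -0.66), Hsd17b7 (4 fits, -0.37 to -0.33), Hspa1b (4 fits, -0.57 to -0.36), Bmp2 (5 fits, 0.32 to 0.37), Cry1 (5 fits, 0.24 to 0.34), Perp (5 fits, 0.86 to 1.12), Tcap (5 fits, 1.63 to 1.90), Ckm (6 fits, 1.55 to 2.28), Cspg4 (6 fits, -0.33 to -0.24), Igf1r (6 fits, 0.22 to 0.30), Irs2 (6 fits, 0.25 to 0.35), Mbp (6 fits, -0.26 to -0.23), Cx3cr1 (7 fits, -0.57 to -0.45), Gata2 (7 fits, 0.23 to 0.26), H2-Aa (7 fits, -0.88 to -0.52), Tnnc2 (7 fits, 2.09 to 2.66), Cd209a (10 fits, -0.49 to -0.37) and Igf2 (10 fits, 0.47 to 0.59).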
